A study of Mus musculus with 2 samples.

Results

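Hedgehog signaling was read from 9 genes, namely the ligand genes Shh, Ihh and Dhh, the receptor gene Ptch1, the ligand-binding antagonist gene Hhip, the signal transducer gene Smo and the transcription factor genes Gli1, Gli2 and Gli3. They were named as core components of the pathway by a rule that uses no measured value, though earlier results of these data were known when it was written, and are 9 of the 55416 genes in the count table. All 9 were found in the table by symbol, each with 1 identifier. The RNA came from 2 tumors of mice bred from the Dppa3-cre line and a strain carrying a floxed Smarcb1 allele, a cross written Dppa3-cre::Smarcb1 Fl/+. The Smarcb1 protein belongs to the core of the SWI/SNF (BAF) complex, which remodels chromatin, and its loss defines rhabdoid tumors (RT). One tumor was labelled intracranial and lay at the trigeminal nerve, the other was labelled extracranial and lay in the face at the maxilla, and both were classified as MYC tumors. Each location had 1 library, no normal tissue was part of the comparison, and the age of the mice was not given in the labels used here. Cre was knocked in at Dppa3, which primordial germ cells express and which is also on in oocytes and early embryos, so every cell descended from a recombined germ-line or embryonic cell could carry the deletion. The libraries are called trigeminal and maxillary below, by these labels.

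Hedgehog ligands are secreted proteins that bind Ptch1 on the receiving cell. Unbound Ptch1 keeps Smo inactive. Ligand binding frees Smo to accumulate in the primary cilium, where Gli2 and Gli3 are then spared from being cut into repressors and act as activators. Gli1 is made as an activator, and the Gli1, Ptch1 and Hhip genes are themselves induced by the pathway, so that their transcripts are widely used as its readout. In the developing face the pathway patterns neural crest-derived mesenchyme, to which epithelium supplies Shh, and Dhh is known as a ligand of Schwann cells.

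Promoter sequence is shown for the 3 members that set the frame of the results, namely Ptch1 and Gli2, which were lower in the maxillary library, and Smo, which was the most abundant member per exon length in both libraries. The 250 bases before the annotated start were taken from RefSeq on build GRCm38.p6, a different build from the GRCm39 build of the counts. Of the 9 members 7 were matched in that promoter table, and Shh and Gli1 were not. The Ptch1 window is chr13:63565736-63565985 on the minus strand, the Gli2 window chr1:119053620-119053869 on the minus strand and the Smo window chr6:29735247-29735496 on the plus strand, each written 5′ to 3′ along the gene with every GC box (GGGCGG on either strand) in capitals.
Ptch1: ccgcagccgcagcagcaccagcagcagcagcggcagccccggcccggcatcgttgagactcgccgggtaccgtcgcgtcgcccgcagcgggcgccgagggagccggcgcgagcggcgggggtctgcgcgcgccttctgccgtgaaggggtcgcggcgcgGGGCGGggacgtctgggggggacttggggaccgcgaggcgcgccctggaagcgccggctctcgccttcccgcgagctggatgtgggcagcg
Gli2: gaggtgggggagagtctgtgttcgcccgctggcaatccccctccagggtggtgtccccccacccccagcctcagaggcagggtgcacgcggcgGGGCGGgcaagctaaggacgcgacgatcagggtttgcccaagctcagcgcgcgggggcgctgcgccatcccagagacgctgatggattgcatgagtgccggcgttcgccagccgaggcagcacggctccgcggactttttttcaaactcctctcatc
Smo: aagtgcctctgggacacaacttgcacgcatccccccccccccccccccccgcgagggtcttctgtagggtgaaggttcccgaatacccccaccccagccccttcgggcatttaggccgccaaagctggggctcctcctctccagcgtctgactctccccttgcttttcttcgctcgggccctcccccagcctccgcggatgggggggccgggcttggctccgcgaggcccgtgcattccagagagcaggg
None of the 3 windows held an exon base of the GENCODE annotation used for lengths, and the Ptch1 window lay inside the longer Ptch1 gene model. The Gli-binding motif GACCACCCA, searched on both strands, matched in 0 of the 7 windows, and 0.225% of the 32851 RefSeq windows of this length held it. The closest stretch differed from it at 3 bases in the Ptch1 window and at 2 bases in the Gli2 and Smo windows. A GC box stood in 6 of the 7 windows, Smo being the exception, and in 32.7% of all windows. The Ptch1 window held 41 CpG dinucleotides, more than 98.9% of windows, the Gli2 window 22 and the Smo window 15, where the median window held 6. The motif counts describe these letters only.

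The trigeminal library held 34545846 counts over genes and the maxillary library 26915696. Levels are given as CPM, the counts of a gene scaled to a common library total, and, for comparisons between genes, as CPM per kilobase of exon. A ratio is the maxillary over the trigeminal level after scaling the library sizes by the trimmed mean of M values (TMM), given with an exact 95% interval. Intervals and floors cover counting error only, and because there was 1 library per location no difference could be tested between locations. Smarcb1 itself had 365 counts (10.5 CPM) in the trigeminal and 530 counts (19.8 CPM) in the maxillary library, so its transcripts were present in both. The paper reports that stained tumors of this model at both sites had lost the Smarcb1 protein. Which cells or which allele the transcripts came from was not tested. All 5 genes used as markers of extracranial RT cells (Tnn, C1qtnf3, Prelp, Tlx2 and Postn) were lower in the maxillary library, from a summed 2542 CPM in the trigeminal library to 922 CPM. The library labelled intracranial was therefore the one with more of these extracranial markers. No list of markers of intracranial RT cells was set beside them. Keratinocyte genes, 10 of 10, and skeletal muscle genes, 8 of 8, were also lower in the maxillary library. Of 10 Schwann cell genes 7 were lower and 2 higher there, and of 8 neuronal genes 3 were lower and 5 higher. Here and below, a marker gene is counted as lower or higher where its interval excluded equal levels. By that rule 32.2% of all genes with at least 10 counts were lower in the maxillary library and 29.2% higher. Every direction given here rests on the labels, and whether the labels were exchanged was not tested.

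The ligand genes were barely detected in either tumor. Shh (ENSMUSG00000002633, chromosome 5) had 7 counts in the trigeminal library, 0.201 CPM (interval 0.0810 to 0.415), and 0 counts in the maxillary library, which allows up to 0.138 CPM. With fewer than 10 counts in all Shh was given no ratio, the ranges that counting error allows for its levels overlap, and the exact interval of the log2 ratio, which has no lower bound, ended at −0.15. Ihh (ENSMUSG00000006538, chromosome 1), best known from growth plate cartilage, had 12 and 3 counts, 0.345 CPM (interval 0.178 to 0.603) in the trigeminal and 0.112 CPM (interval 0.0231 to 0.328) in the maxillary library. These counts gave a log2 ratio of −1.62 (interval −4.09 to 0.27), which does not separate the libraries at this depth. Dhh (ENSMUSG00000023000, chromosome 15) had 22 and 7 counts, or 0.633 CPM (interval 0.397 to 0.959) and 0.262 CPM (interval 0.105 to 0.539). Its log2 ratio was −1.28 (interval −2.75 to 0.0019), so the interval just reached equal levels. All 3 ligand genes had more counts in the trigeminal library, and together they came to 1.18 CPM there and 0.374 CPM in the maxillary library.

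The ligand counts are also open to gain or loss of reads where exons overlap those of neighbors. Part of the Dhh exon sequence, 546 bp or 12.4%, is shared on the same strand with Rhebl1, which had 188 and 140 counts. On the opposite strand Gm49442 covers 1107 bp (25.2%) of the Dhh exons and had 0 and 2 counts. The antisense gene 9530036O11Rik covers 446 bp (15.7%) of the Shh exons and had 0 counts in both libraries, and Gm26894, which was not matched in the count table, covers 361 bp (12.7%). In bulk tissue, fewer cells of a type and less RNA per cell cannot be told apart. Most of the listed markers of epithelium, a known source of Shh, were lower in the maxillary library. With 2 libraries, whether these markers vary with Shh cannot be measured. All 10 keratinocyte genes were lower in the maxillary library, where 5 of them had 0 counts, and their summed level was 22138 CPM in the trigeminal and 3.10 CPM in the maxillary library. Krt5, which marks basal keratinocytes, had 25883 and 0 counts, and Trp63, their defining transcription factor, had 1284 and 0 counts. Of 10 airway and oral gland genes 8 were lower in the maxillary library and 6 had 0 counts there, with summed levels of 2804 and 197.5 CPM. Kcnn4, with 4542 and 4736 counts, was higher there and made up most of the maxillary sum (177.0 CPM). The interval of Aqp5, with 653 and 529 counts, included equal levels. The 10 Schwann cell genes, of which 7 were lower and 2 higher in the maxillary library, included Sox10 at 43 and 0 counts and Egr2 at 630 and 2396 counts. Their summed level was 76.7 CPM in the trigeminal and 119.1 CPM in the maxillary library, where Egr2 made up most of it. The 10 chondrocyte genes summed to 225.7 and 96.3 CPM, with 2 lower and 3 higher in the maxillary library. The lower sum came mainly from Comp, with 6474 and 270 counts, and Sox9, with 802 and 333 counts, was the other lower gene. Col11a1, with 256 and 1561 counts, and Hapln1, with 264 and 370 counts, were higher in the maxillary library. Col2a1, which defines cartilage matrix, had 23 and 21 counts. The part of these cells in the ligand counts was not tested.

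**Figure D1:**
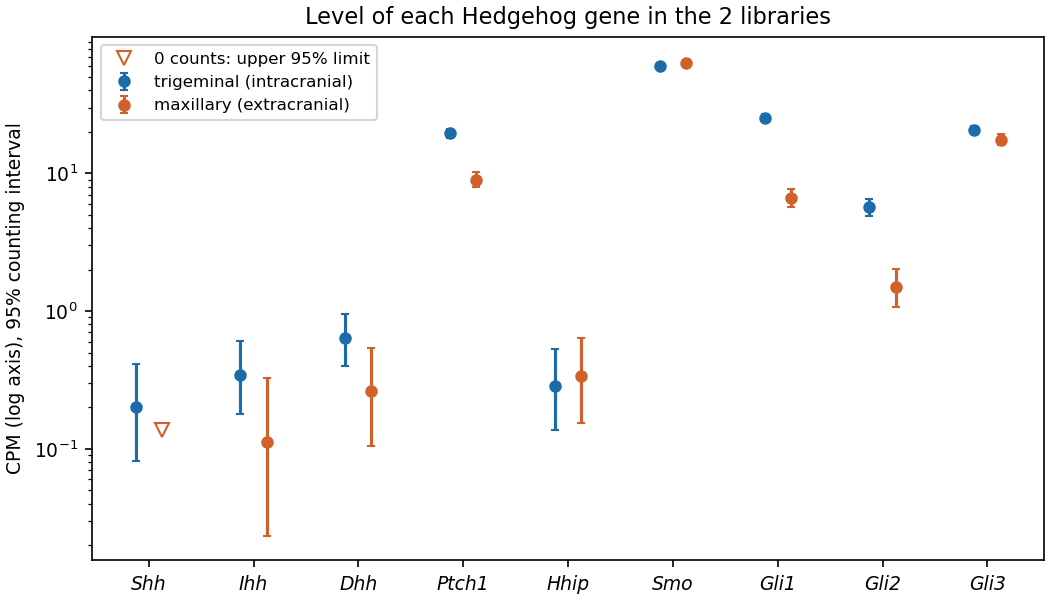
CPM of the 9 Hedgehog genes on a log axis in the trigeminal and the maxillary library, with exact 95% counting intervals. Ligand genes and Hhip lie below 1 CPM in both libraries, Smo lies near 60 CPM in both, and Gli1, Gli2 and Ptch1 are separated between the libraries.

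Among the genes that receive the ligand, Ptch1 was lower in the maxillary library and Smo was not separated from equal levels. Ptch1 (ENSMUSG00000021466, chromosome 13) had 679 counts in the trigeminal library, 19.5 CPM (interval 18.1 to 21.1), and 241 counts in the maxillary library, 9.01 CPM (interval 7.90 to 10.2). The level was 2.17-fold lower in the maxillary tumor, a log2 ratio of −1.12 (interval −1.34 to −0.90). Ptch1 encodes both the receptor and a feedback inhibitor, and the difference was larger than counting error by a wide margin while leaving 2-fold inside its interval. Smo (ENSMUSG00000001761, chromosome 6), the transducer that Ptch1 restrains, had 2082 and 1682 counts. Its levels were 59.9 CPM (interval 57.4 to 62.5) in the trigeminal and 62.9 CPM (interval 59.9 to 65.9) in the maxillary library, a log2 ratio of 0.07 (interval −0.02 to 0.16). With more reads than any other member, Smo had the narrowest interval, and its levels in the tumors overlapped within counting error. Hhip (ENSMUSG00000064325, chromosome 8), which binds and sequesters ligand at the cell surface, had 10 and 9 counts, or 0.288 CPM (interval 0.138 to 0.529) and 0.336 CPM (interval 0.154 to 0.638). Its log2 ratio of 0.22 (interval −1.25 to 1.68) leaves either direction open at this depth. Per kilobase of exon Hhip was at 0.0317 and 0.0371 CPM and Ptch1 at 1.38 and 0.635 CPM, so these known targets of the pathway stood far apart in level within each tumor.

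All 3 Gli genes had lower levels in the maxillary tumor, Gli1 and Gli2 by nearly the same factor and Gli3 by much less. Gli1 (ENSMUSG00000025407, chromosome 10), the activator whose gene is the usual readout of the pathway, had 871 counts in the trigeminal library, 25.1 CPM (interval 23.4 to 26.8), and 178 counts in the maxillary library, 6.65 CPM (interval 5.71 to 7.70). The ratio was 3.77-fold lower in the maxillary tumor, a log2 ratio of −1.91 (interval −2.15 to −1.68). Gli2 (ENSMUSG00000048402, chromosome 1), the main activator downstream of Smo, had 198 and 40 counts, or 5.70 CPM (interval 4.93 to 6.55) and 1.49 CPM (interval 1.07 to 2.04). It was 3.81-fold lower in the maxillary tumor, a log2 ratio of −1.93 (interval −2.46 to −1.43) that is wider than for Gli1 because fewer reads were counted. Gli3 (ENSMUSG00000021318, chromosome 13), the main repressor when ligand is absent, had 718 and 471 counts, or 20.7 CPM (interval 19.2 to 22.2) and 17.6 CPM (interval 16.0 to 19.3). It was 1.17-fold lower in the maxillary tumor, a log2 ratio of −0.23 (interval −0.40 to −0.06), so the interval excluded equal levels but the difference was small. Gli1 shares 62 bp (1.24%) of its exon sequence with Arhgap9 on the opposite strand, a gene with 759 and 1538 counts. A larger part, 265 bp (5.31%), is shared with the opposite-strand gene Gm47200, which had 1 and 0 counts. Also on opposite strands, Gm6556, with 23 and 13 counts, covers 188 bp (1.96%) of the Gli3 exons. Gm27820 covers 175 bp (1.93%) of the Hhip exons. In the annotation used no gene shared exon sequence with Gli2, Smo, Ptch1 or Ihh.

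**Figure D2:**
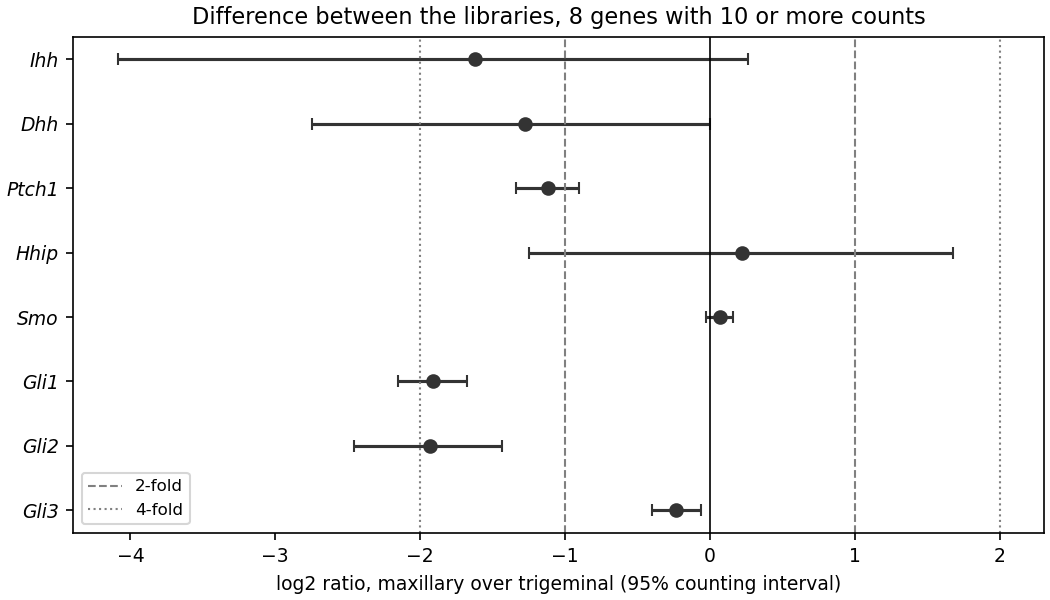
Log2 ratio of the maxillary over the trigeminal level for the 8 Hedgehog genes with at least 10 counts, with exact 95% intervals. Gli1, at −1.91, and Gli2, at −1.93, lie wholly below 2-fold lower, Ptch1 and Gli3 lie wholly below equal levels, and the intervals of Smo, Hhip, Ihh and Dhh include equal levels.

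A gene counted as called if no part of its interval came within 4-fold of equal levels, and ratios were made for 21977 genes with at least 10 counts. By this rule 0 of the 8 members with a ratio were called, where 5.41% of all genes were called lower and 1.78% higher in the maxillary library. With a 2-fold limit Gli1 and Gli2 were lower, 2 of 8, and 0 were higher, where 9.77% of all genes were lower and 5.86% higher. With intervals that only had to exclude equal levels, Ptch1, Gli1, Gli2 and Gli3 were lower, 4 of 8, and 0 were higher, where 32.2% of all genes were lower and 29.2% higher. The median log2 ratio of the members was −1.20, with 6 below 0 and 2 above, and that of all genes was −0.04. Differences of the size seen for Gli1 and Gli2 were therefore frequent between these libraries, and 8 genes are too few to set their share against that of all genes.

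Ratios of members within a library do not depend on how the libraries were scaled, and comparing such a ratio between libraries does not depend on gene length either. For every Gli3 read, the trigeminal library held 1.21 Gli1 reads (interval 1.10 to 1.34) and the maxillary library 0.378 (interval 0.316 to 0.450). The ratio of Gli1 to Gli3 reads was thus 3.21-fold higher in the trigeminal tumor (interval 2.62 to 3.94). Gli2 reads per Gli3 read were 0.276 (interval 0.234 to 0.323) in the trigeminal and 0.0849 (interval 0.0599 to 0.117) in the maxillary library, 3.24-fold higher in the trigeminal tumor (interval 2.25 to 4.77). Both Gli1 and Gli2 were therefore lower in the maxillary tumor relative to Gli3 as well as relative to all reads. Gli1 reads per Gli2 read were 4.40 (interval 3.77 to 5.16) and 4.45 (interval 3.14 to 6.44). That ratio was 1.01 times as high in the maxillary as in the trigeminal library, with an interval from 0.688 to 1.51, so the data leave room for a difference of up to that size. For every Smo read there were 0.326 Ptch1 reads (interval 0.299 to 0.356) in the trigeminal and 0.143 (interval 0.125 to 0.164) in the maxillary library. Ptch1 reads were thus 2.28-fold more abundant relative to Smo reads in the trigeminal tumor (interval 1.93 to 2.68). These are ratios of RNA in bulk tissue, and the amounts and forms of the proteins were not measured.

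**Figure D3:**
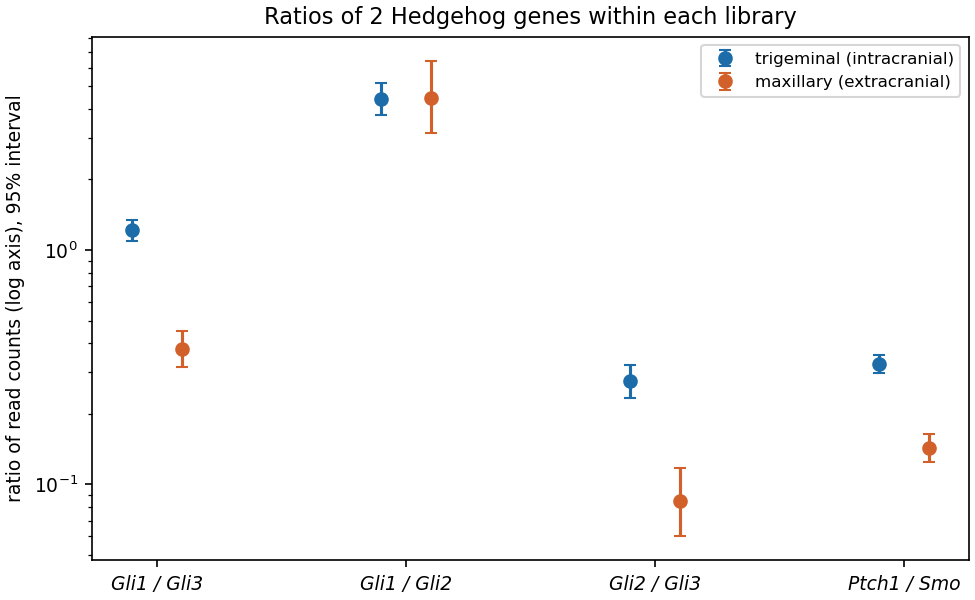
Ratio of reads of 2 Hedgehog genes within each library on a log axis, with exact 95% intervals. Gli1 over Gli3, Gli2 over Gli3 and Ptch1 over Smo are higher in the trigeminal library, and Gli1 over Gli2, at 4.40 and 4.45, overlaps between the libraries.

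Per kilobase of exon, Smo was the most abundant member in both tumors, at 10.7 CPM per kilobase in the trigeminal and 11.2 in the maxillary library. In the trigeminal library Gli1 followed at 5.02, then Gli3 at 2.15, Ptch1 at 1.38 and Gli2 at 0.830 CPM per kilobase, each with an interval apart from its neighbors. In the maxillary library Gli1 and Gli3 changed places, with Gli3 at 1.84 and Gli1 at 1.33 CPM per kilobase, followed by Ptch1 at 0.635 and Gli2 at 0.218. The remaining members, Dhh, Ihh, Shh and Hhip, all lay below 0.15 CPM per kilobase in both libraries, and neighbors among them had overlapping intervals. Ranked among all genes above the floor of 3 counts in either library, Smo stood at percentile 86.6 in the trigeminal and 87.1 in the maxillary library by CPM. Gli1 stood at percentile 70.8 and 52.5, Ptch1 at 66.2 and 55.9, Gli2 at 48.7 and 38.9 and Gli3 at 67.2 and 65.1. Exon lengths covered every annotated exon of a gene, which for Ptch1 came to 14185 bp and for Gli1 to 4995 bp, so a gene with many alternative exons is placed lower than its main transcript would be.

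The other genes of the pathway were described from 6 lists by role, with 67 genes in all. Of these 65 had a ratio, with a median log2 ratio of −0.28. Intervals excluded equal levels for 30 genes that were lower and 17 that were higher in the maxillary library. Beyond 2-fold 4 were lower and 5 higher, and beyond 4-fold Cdon and Sfrp1 were lower and Foxl1 and Osr1 higher. The shares of all genes at these limits are those given for the members.

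Of 5 genes that make and release active ligand 1 was higher in the maxillary tumor, and the intervals of the others included equal levels. Hhat, which attaches palmitate to the ligand, had 625 and 509 counts (log2 ratio 0.08, interval −0.09 to 0.25), and Disp1, which exports it, had 351 and 304 counts (log2 ratio 0.17, interval −0.06 to 0.40). Scube3, a secreted carrier of the ligand, had 21 and 86 counts and was 5.32-fold higher in the maxillary tumor (log2 ratio 2.41, interval 1.71 to 3.17). Scube1 with 10 and 4 counts and Scube2 with 4 and 2 counts were near the floor. Hhat, Disp1 and Scube3 thus had more counts than any ligand gene in the maxillary tumor, and Scube1 and Scube2 lay as low as the ligand genes.

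Co-receptors did not move together. Cdon, a cell surface protein that promotes ligand binding, had 682 counts in the trigeminal library, 19.6 CPM, and 101 counts in the maxillary library, 3.77 CPM. It was 5.20-fold lower in the maxillary tumor (log2 ratio −2.38, interval −2.69 to −2.08), a larger difference than that of any member with a ratio. Boc, its close relative, had 563 and 279 counts and a log2 ratio of −0.64 (interval −0.85 to −0.43). Gas1, a co-receptor anchored at the cell surface, had 8314 and 7763 counts, or 239.3 CPM in the trigeminal and 290.1 CPM in the maxillary library (log2 ratio 0.28, interval 0.23 to 0.32). Gpc3, a glypican that competes with Ptch1 for the ligand, had 266 and 278 counts (log2 ratio 0.44, interval 0.19 to 0.69). Of the 5 genes in this list 2 were lower and 2 higher in the maxillary library with intervals that excluded equal levels.

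Of the 8 genes that act on Smo or its signal at the cilium 4 were lower and 2 higher in the maxillary tumor. Gpr161, a ciliary receptor that keeps the pathway off, had 412 and 176 counts (log2 ratio −0.85, interval −1.11 to −0.59). Evc and Evc2, which form a complex that relays the signal from Smo, had 1510 and 769 counts and 1562 and 915 counts, with log2 ratios of −0.60 and −0.39. Tulp3, which carries Gpr161 into the cilium, had 612 and 362 counts (log2 ratio −0.38). The kinase gene Grk2, with 3545 and 4827 counts, and the arrestin gene Arrb2, with 3973 and 7362 counts, were higher in the maxillary library, with log2 ratios of 0.82 and 1.27. Grk2 and Arrb2 serve many receptors beside Smo and are abundant in leukocytes. Macrophage genes, 8 of 8, were higher in the maxillary library, with summed levels of 2819 and 8373 CPM, and their part in these values was not tested.

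Genes for processing and inhibiting the Gli proteins had a median log2 ratio of 0.14 over 9 genes, of which 2 were lower and 4 higher in the maxillary library. Kif7, a ciliary kinesin that organizes Gli proteins at the cilium tip, had 78 and 119 counts (log2 ratio 0.99, interval 0.56 to 1.42). Prkacb, a catalytic subunit of protein kinase A, which primes Gli2 and Gli3 for cutting, had 8514 and 3506 counts (log2 ratio −0.90, interval −0.96 to −0.85). The other catalytic subunit gene, Prkaca, had 1580 and 1403 counts and the opposite sign (log2 ratio 0.21, interval 0.10 to 0.31). Sufu, with 672 and 644 counts (log2 ratio 0.32, interval 0.16 to 0.47), was also higher in the maxillary library. So was Prkar1a, with 8050 and 7132 counts (log2 ratio 0.20, interval 0.16 to 0.25). Gsk3b, a further kinase of that step, had a log2 ratio of 0.00 (interval −0.10 to 0.10). The ubiquitin ligase adaptor genes Btrc and Spop, whose products direct Gli proteins to the proteasome, had log2 ratios of 0.14 and −0.09.

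Genes of the primary cilium and of intraflagellar transport were slightly lower in the maxillary tumor, with 13 of 21 lower, 3 higher and 0 beyond 2-fold. Their log2 ratios ran from −0.72 to 0.37 with a median of −0.29, and their summed level was 395.2 CPM in the trigeminal and 356.2 CPM in the maxillary library. The transport gene Ift80, with 960 and 450 counts (log2 ratio −0.72), the kinase gene Ttbk2, which starts cilium assembly, with 415 and 203 counts (log2 ratio −0.65), and Ift140, with 986 and 511 counts (log2 ratio −0.57), were the lowest. Ift88 and Arl13b, common markers of cilium formation, had log2 ratios of −0.28 and −0.41. The 3 higher genes were Kif3b (0.25), Arl3 (0.37) and Ofd1 (0.35). Motile cilia share several of these genes. The 8 genes of motile ciliated cells summed to 9.41 CPM in the trigeminal and 5.53 CPM in the maxillary library, Foxj1, their defining factor, had 32 and 29 counts, and 3 of the 8 had 0 counts in the maxillary library.

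**Figure D4:**
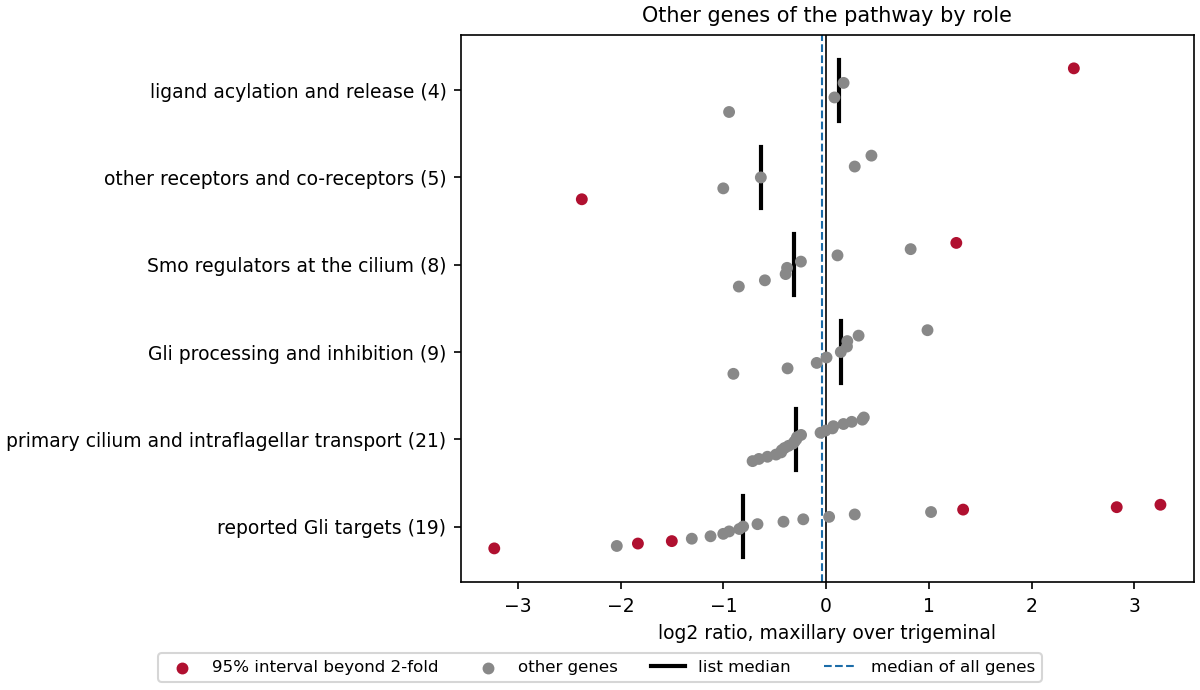
Log2 ratio of the maxillary over the trigeminal level for pathway genes with at least 10 counts, in rows by role with the number of genes in brackets, black bars marking list medians and red points genes whose 95% interval lies beyond 2-fold. Cilium genes lie between −0.72 and 0.37, and Gli targets spread from −3.23 to 3.25 in both directions.

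Genes reported elsewhere as Gli targets differed in both directions. Of 20 genes 19 had a ratio, since Nkx2-2, a target in the neural tube, had 0 counts in both libraries. Their median log2 ratio was −0.81, with 9 lower and 5 higher in the maxillary library and 3 in each direction beyond 2-fold. Sfrp1, a secreted Wnt antagonist, had 256 and 21 counts and was 9.39-fold lower in the maxillary tumor (log2 ratio −3.23, interval −3.95 to −2.59). Osr2, a factor of palate mesenchyme, had 74 and 16 counts (log2 ratio −1.83, interval −2.71 to −1.04), and Pthlh, which encodes the hormone through which Ihh paces cartilage growth, had 482 and 131 counts (log2 ratio −1.50, interval −1.79 to −1.22). These had the direction of Gli1 and Ptch1.

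Targets in the opposite direction included the forkhead gene Foxl1, with 55 and 404 counts, which was 9.54-fold higher in the maxillary tumor (log2 ratio 3.25, interval 2.84 to 3.69). Osr1, a relative of Osr2, had 209 and 1143 counts and was 7.10-fold higher (log2 ratio 2.83, interval 2.61 to 3.05). The cyclin genes split, with Ccnd1 at 12607 and 6108 counts (log2 ratio −0.67) and Ccnd2 at 4784 and 9282 counts (log2 ratio 1.33). The forkhead genes split as well, with Foxd1 at 299 and 93 counts (log2 ratio −1.31), Foxc2 at 599 and 936 counts (log2 ratio 1.02), and Foxf1 at 28 and 12 counts, where the interval of −1.96 to 0.18 included equal levels. Snai1, a factor of epithelial-mesenchymal transition, had 980 and 431 counts (log2 ratio −0.81), and Bcl2, an inhibitor of apoptosis, had 1148 and 1072 counts (log2 ratio 0.28, interval 0.16 to 0.40). Many of these genes have inputs other than Gli proteins, and the list was compiled from general knowledge of several tissues.

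Mesenchymal cells are the usual site of Ptch1 and Gli1 expression in the face, and their markers did not share 1 direction. The 10 fibroblast and mesenchyme genes summed to 5174 CPM in the trigeminal and 6395 CPM in the maxillary library, with 5 lower and 4 higher in the latter and 0 listed at 0. The mesenchyme genes Prrx1 (438.9 and 334.6 CPM), Pdgfra (271 and 138 CPM) and Twist1 (138 and 84.5 CPM) had less signal in the maxillary library, and the matrix genes Dcn (108 and 790 CPM) and Lum (24.5 and 572 CPM) had more. Neither kind moved as a whole. The matrix genes Col1a1 (1113 and 887 CPM) and Col3a1 (1093 and 894 CPM) had less signal there. Col1a2 (1733 and 2414 CPM) and the mesenchyme gene Pdgfrb (254 and 280 CPM) had more. Bone and tooth genes summed to 21.5 and 170.2 CPM over 10 genes, with 2 lower and 5 higher in the maxillary library. Dmp1, with 29 and 3988 counts, made up most of the maxillary sum, and Ibsp, with 186 and 15 counts, and Bglap, with 60 and 4 counts, were lower there. Endothelial genes were higher in the maxillary library for 8 of 8, with sums of 190.9 and 324.1 CPM, and skeletal muscle genes were lower for 8 of 8, from 49.6 CPM in the trigeminal library to a sum 4.95-fold lower. Neuronal genes split, with 3 of 8 lower (Tubb3, Snap25 and Elavl4) and 5 higher in the maxillary library, among them Nefl with 396 and 1613 counts. They summed to 80.4 and 134.7 CPM. Neural progenitor and glial genes summed to 17.3 and 38.2 CPM over 8 genes, nearly all of it Nes with 515 and 1003 counts. In that list Fabp7, with 44 and 5 counts, and Aqp4, with 11 and 0 counts, were lower in the maxillary library, and Olig2 and Sox1 were at 0 in both. The part of any of these cell types in the Ptch1, Gli1 and Gli2 differences was not tested, and location, tissue composition and tumor cannot be told apart with 1 library each.

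**Figure D5:**
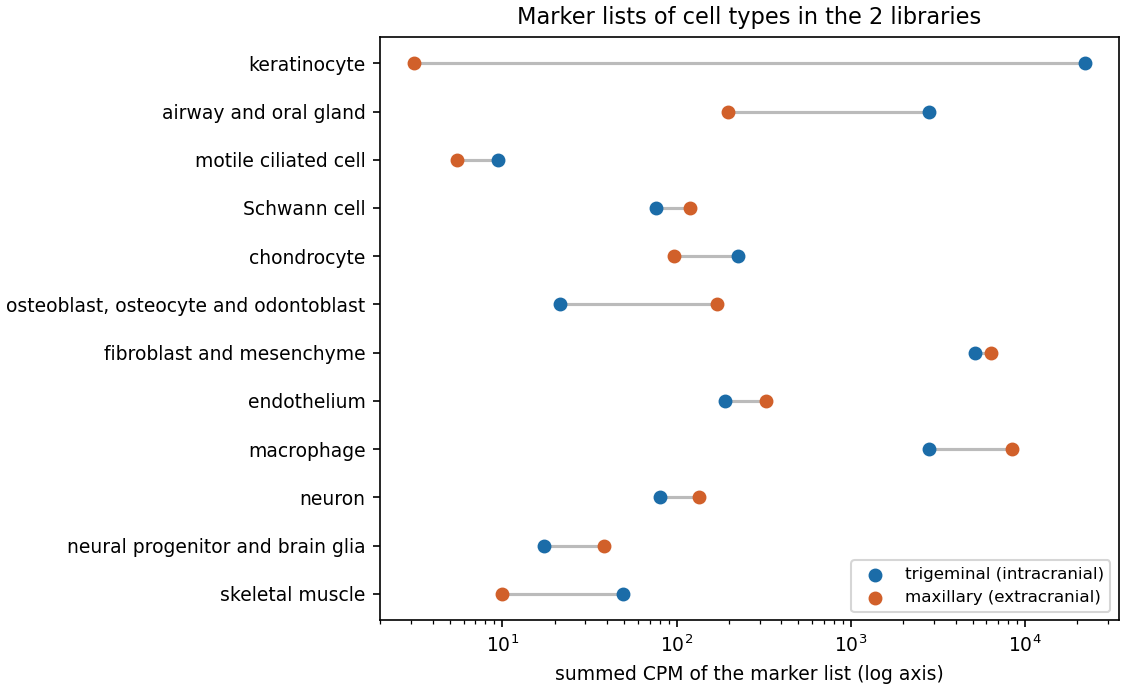
Summed CPM of each cell type marker list on a log axis in the trigeminal and the maxillary library. Keratinocyte genes are at 22138 and 3.10 CPM, macrophage genes are at 2819 and 8373 CPM, and fibroblast and mesenchyme genes are at 5174 and 6395 CPM.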

How the data were processed

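Total RNA from frozen tumor tissue (RNeasy) was made into directional libraries after poly(A) selection and sequenced as single reads. The authors aligned reads to GRCm39 with STAR 2.7.9a and counted them per gene with featureCounts, and the deposited values are raw counts per Ensembl gene without normalization. Whether strand was used and how multimapping reads were treated is not given in the sources used here. Reads of overlapping genes may therefore have been credited to a neighbor or left uncounted. Columns were matched to libraries by name. The Hedgehog genes, the pathway lists and the marker lists were chosen with earlier results of these data known, and all members are named. Symbols and exon lengths came from the GENCODE M21 annotation, which matched 52135 of 55416 identifiers, and IDs without a symbol took 0.694% and 0.950% of counts. Library sizes were scaled with TMM (edgeR 4.0.16, R 4.3.3; factors 1.006 and 0.994). Ratios for genes with at least 10 counts received exact conditional binomial (Clopper-Pearson) 95% intervals, after the calculation was tested on simulated data. The floor of 3 counts was 0.0863 CPM in the trigeminal and 0.112 CPM in the maxillary library. Alternatives were DESeq2 1.42.0 size factors, total counts, upper quartile scaling, other limits and filters, and the exact test of edgeR at an assumed replicate spread. PCR duplicates could not be removed without molecular identifiers.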

Additional observations from a re-analysis of the deposited data

How the results depend on the processing

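No paired analysis was possible because 1 library stood for each site, and for the same reason no library could be left out. Members called beyond 4-fold were 0 with TMM, with total counts, with upper quartile scaling and with DESeq2 size factors, with the ratio alone, with any count, with at least 100 counts and over protein-coding genes only, the last chosen after seeing the data. They were 2 with a 2-fold limit and 4 with intervals excluding equal levels, since those limits are looser. Of the other pathway genes 4 were called, against 9 with the 2-fold limit (4 lower, 5 higher), 47 with intervals excluding equal levels (30 lower, 17 higher) and 6 by the ratio alone. The edgeR exact test at an assumed biological coefficient of variation of 0.4 had no fold limit. It asked only for a difference from equal levels, at an adjusted p-value below 0.05. By that test 0 members and 3 other pathway genes were called, and Cdon was not. Over all genes the called count was 1581 (7.19%), from 1568 to 1586 with the other scalings, 3434 (15.6%) with the 2-fold limit, 13500 with intervals excluding equal levels and 2542 by the ratio alone. Without division by exon length 2 members in the trigeminal and 4 in the maxillary library took another place in the order of levels. With total counts the Dhh interval excluded equal levels (log2 ratio −1.29, upper bound −0.01), and with upper quartile scaling so did that of Smo (0.11, interval 0.01 to 0.20). All other member ratios kept their side under the 3 scalings. Restricting the ranking to protein-coding genes moved 14 of 18 percentiles, for Gli1 to 61.5 and 38.1. Depth limits Shh, Ihh, Dhh and Hhip, each with fewer than 30 counts over both libraries.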

Other observations

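Further ratios among the members were chosen after their values were seen. Gli1 reads per Smo read were 0.418 in the trigeminal and 0.106 in the maxillary library, 3.95-fold higher in the trigeminal tumor (interval 3.32 to 4.73). Gli1 reads per Ptch1 read were 1.28 and 0.739, 1.74-fold higher in the trigeminal tumor (interval 1.39 to 2.17), so that Gli1 was lower in the maxillary library also relative to Ptch1. Gli3 reads per Smo read were 0.345 and 0.280, 1.23-fold higher in the trigeminal tumor (interval 1.08 to 1.41). These intervals cover counting error only, from 1 library each.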
